A study of Homo sapiens with 12 samples.

Results

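The D-type cyclins CCND1, CCND2 and CCND3 and the kinases CDK4 and CDK6 that they activate were followed in melanoma cell lines given the RAF inhibitor PLX4032 (vemurafenib). All probe sets carrying 1 of these 5 gene symbols were taken from the deposited array table, which gave 8 of its 22277 probe sets. CCND1 had 2 probe sets, CCND2 had 3, and CCND3, CDK4 and CDK6 had 1 each. All 5 lines, Malme3M, SkMel-1, SkMel-5, SkMel-19 and SkMel-28, carry BRAF V600E, the mutant kinase that signals through MEK to ERK. They were grown in RPMI 1640 medium with 10% serum to 70% confluency and given either the vehicle, 0.1% DMSO, or PLX4032 in DMSO. RNA was taken after 8 h. Each of the 5 lines had 1 DMSO array and 1 array at 250 nM, and only SkMel-19 and Malme3M also had 1 array each at 1000 nM, 12 arrays in all.

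The lines are the replicates, with no repeat of any line and dose, so the p-values measure the spread of the response between these lines. On every array the melanocyte genes MITF, SOX10, PMEL, MLANA and TYR lay above the signal filter described below. Of the 11 measured melanocyte markers 8 were above it on all arrays, and TYRP1, OCA2 and PAX3 were below it on 2 arrays each. Of 6 blood cell markers 4 lay below the filter on all 12 arrays, PTPRC among them, and 0 lay above it on all. LCP1 ran from 44.5 to 2264.2. Of 10 fibroblast markers 4 were always below, among them COL3A1 and PDGFRB, and COL1A1 and LUM were always above. TWIST1 ran from 56.3 to 1927.2. Of 8 keratinocyte and epithelial markers 4 were always below, among them KRT5, KRT14 and EPCAM. KRT10 (1993.0 to 4506.8) and KRT18 (91.5 to 781.0) were always above, and CDH1 ran from 19.7 to 5034.2. Summed signal of the 11 measured melanocyte markers of 12 ran from 34436.0 to 71499.3 in DMSO and from 44822.4 to 77934.0 at 250 nM. At 250 nM 2 of these 11 passed the test described below, MLANA (0.20 higher on the log2 scale) and GPR143 (0.29 higher). Of 3 measured epithelial markers KRT18 passed, falling by 0.77. Among all genes tested 28.3% passed in either direction. Summed signal of 6 blood cell markers ran from 186.5 to 2360.5 in DMSO and from 189.5 to 2426.1 at 250 nM, and that of 10 fibroblast markers from 708.7 to 2725.0 and from 702.0 to 3117.3. For the 8 keratinocyte and epithelial markers it ran from 2880.7 to 7092.1 in DMSO and from 3084.8 to 7338.6 at 250 nM. The part of these markers in the results was not tested. The ratio of 3' to 5' signal, a sign of RNA quality, ran from 0.868 to 1.0 for GAPDH and from 1.01 to 1.13 for ACTB over the 12 arrays. In such bulk RNA, fewer cells expressing a gene and less RNA per cell cannot be told apart.

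D-type cyclins are the growth factor-responsive partners of CDK4 and CDK6. The active pair phosphorylates the RB protein in G1, which frees E2F factors to transcribe genes of DNA replication, while INK4 proteins such as CDKN2A (p16) block the kinases. In melanocytes and melanoma, ERK signalling is a well-known driver of CCND1 transcription, and CDK4 and CDKN2A are known melanoma susceptibility genes.

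Promoters of CCND3, CDK4 and CDK6 were held by the RefSeq promoter table (GRCh38.p14), 3 of the 5 genes. CCND1 and CCND2 were not matched in it. The 250 bases before the gene start of CCND3 and CDK4 are shown because these are the 2 genes above the filter with a promoter in the table, of which CCND3 fell and CDK4 did not pass the test. Both lie on the minus strand, and capitals mark GC boxes (GGGCGG) and E-boxes (CACGTG), on either strand.
CCND3, chr6:42048689-42048938: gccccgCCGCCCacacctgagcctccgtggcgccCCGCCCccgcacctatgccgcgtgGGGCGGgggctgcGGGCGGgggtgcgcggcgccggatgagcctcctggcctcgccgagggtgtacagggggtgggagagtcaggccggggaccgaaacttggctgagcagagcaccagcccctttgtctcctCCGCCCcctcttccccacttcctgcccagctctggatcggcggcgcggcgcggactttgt
CDK4, chr12:57752311-57752560: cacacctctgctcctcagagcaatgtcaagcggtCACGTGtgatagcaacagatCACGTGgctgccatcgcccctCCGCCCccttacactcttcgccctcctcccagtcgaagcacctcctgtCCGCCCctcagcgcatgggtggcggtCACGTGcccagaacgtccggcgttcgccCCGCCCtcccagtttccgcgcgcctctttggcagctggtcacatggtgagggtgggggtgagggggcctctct
Counted back from the gene start, the CDK4 window held 3 E-boxes beginning at -216, -196 and -101, the sequence read by MYC and MITF family proteins among others. An E-box was found in 6.34% of the 35116 promoter windows of the same length. The CDK4 window also held 3 GC boxes, and the CCND3 window held 5 GC boxes and 0 E-boxes. GC boxes were common, being present in 42.6% of all windows. Letters were also searched for an AP-1 site (TGANTCA), a CRE core (ACGTCA), an ETS site (CCGGAA) and an E2F site (TTTNNCGC). They had 0 matches on either strand in the windows of CCND3, CDK4 and CDK6. These letters were present in 6.57%, 7.1%, 14.5% and 5.92% of all windows respectively. Only the letters given were searched, so 0 matches does not mean that other forms of these sites are absent. A match is a description of the sequence and not evidence of binding.

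Signals are the deposited linear intensities, and changes are differences of log2(signal + 12), which understate the change of dim probe sets. The probe set of highest mean signal stood for its gene. The gene was tested with limma if its mean log2 level reached the 40th percentile of the named genes, a signal of 85.7. Of the 11963 named genes, 7178 were tested, and of the 5 genes here CCND1, CCND3 and CDK4 were among them. CCND2 and CDK6 stayed below 85.7 on all 12 arrays and were tested only in a second fit over all 22215 probe sets other than controls. A call means a Benjamini-Hochberg adjusted p under 0.05 over all features of the fit.

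**Figure D1:**
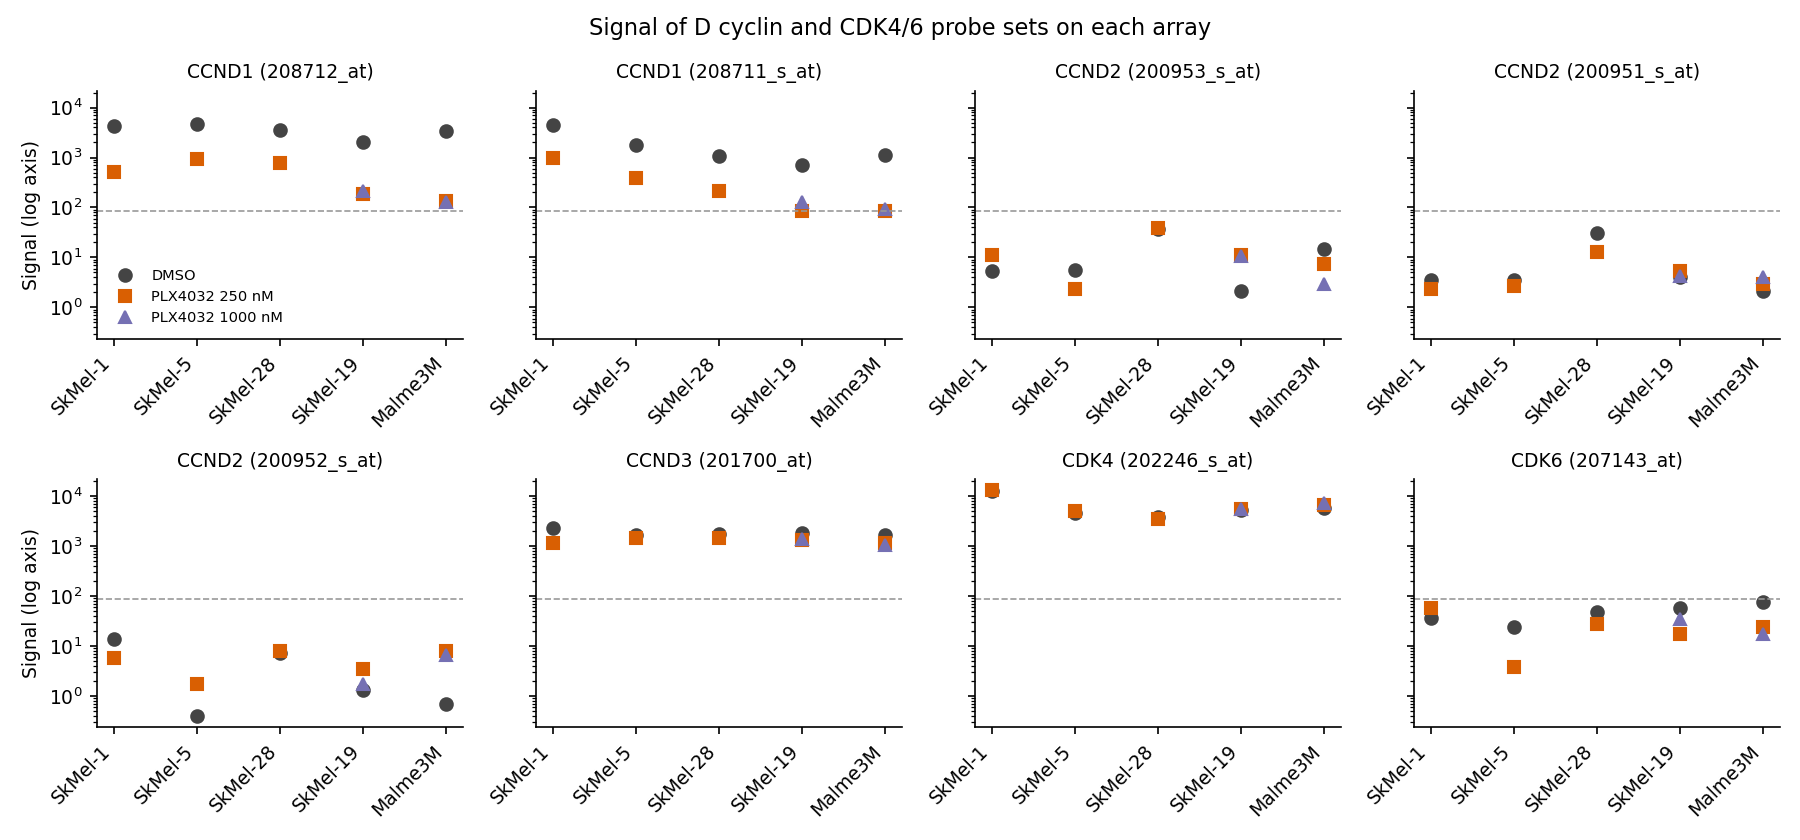
Signal (log axis) of each of the 8 probe sets in the 5 cell lines. Circles are DMSO, squares 250 nM and triangles 1000 nM PLX4032, with 1 array each, and the dashed line is the filter at a signal of 85.7. CCND1 (208712_at) drops in every line, CDK4 differs more between lines than between doses, and CCND2 and CDK6 lie under the line on all arrays.

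PLX4032 at 250 nM lowered CCND1 and, to a much smaller extent, CCND3, whereas CDK4 RNA did not pass the test. Both of the called genes were D cyclins, and both were lower in all 5 lines. Among all 7178 genes 28.3% were called at 250 nM in either direction and 13.1% were called lower, so a call by itself was common. CCND1 stood out by size, with the 7th largest fall of the 7178 genes, while CCND3 ranked 496.

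CCND1 encodes cyclin D1. Its probe set 208712_at read 4367.9 in SkMel-1, 4590.2 in SkMel-5, 3477.8 in SkMel-28, 2091.4 in SkMel-19 and 3332.0 in Malme3M in DMSO. At 250 nM the signals were 504.8, 934.8, 792.9, 184.7 and 132.1 in the same order. The highest treated array lay below the lowest control array, and groups were separated downwards in this way for 94 of the 7178 genes (1.31%). The signal that remained was 22.8% of DMSO in SkMel-28, 20.4% in SkMel-5, 11.6% in SkMel-1, 8.83% in SkMel-19 and 3.96% in Malme3M. By this probe set Malme3M thus kept the smallest share and SkMel-28 the largest, and with 1 array per line and dose this spread among lines was not tested. The mean log2 change was -3.09 (SE 0.295, 95% interval -3.75 to -2.42, n = 5 lines), or 8.5-fold lower, with a limma adjusted p of 0.000349. Within each line CCND1 ranked between the 6th and the 25th largest fall of all genes tested.

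The second CCND1 probe set, 208711_s_at, read 4469.4, 1763.0, 1094.0, 717.1 and 1102.0 in DMSO in the same line order. It read 999.5, 397.5, 210.5, 85.0 and 86.4 at 250 nM. That left 22.4%, 22.5%, 19.2%, 11.9% and 7.84% of DMSO, the largest share in SkMel-5 and the smallest in Malme3M. This probe set fell in all 5 lines, but the treated SkMel-1 array (999.5) lay above the SkMel-19 control (717.1), so the groups overlapped. In the fit over probe sets, where 10.1% were called, its log2 change was -2.60 (SE 0.195, 6.05-fold lower, limma adjusted p 0.00066). Without the cell line block it was not called (adjusted p 0.422). The 2 probe sets ordered the untreated lines differently. By 208712_at the lines spanned 2.19-fold with SkMel-5 highest, only 1.05-fold above SkMel-1, and by 208711_s_at they spanned 6.23-fold with SkMel-1 2.54-fold above the next line. SkMel-19 was lowest by both.

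CCND3 encodes cyclin D3. Its single probe set, 201700_at, read 2257.7 in SkMel-1, 1667.9 in SkMel-5, 1774.5 in SkMel-28, 1854.4 in SkMel-19 and 1697.1 in Malme3M in DMSO, and 1150.0, 1472.6, 1461.2, 1315.9 and 1165.1 at 250 nM. The groups did not overlap, which placed CCND3 with CCND1 among the same 1.31% of genes. The untreated lines were close together, spanning 1.35-fold, and only 5.0% of the genes tested had a smaller SD across the 5 lines. The log2 change was -0.49 (SE 0.109, 95% interval -0.74 to -0.24, n = 5), or 1.4-fold lower, with a limma adjusted p of 0.0115. By line it ran from -0.97 in SkMel-1 to -0.18 in SkMel-5, and without SkMel-1 the change was -0.37 with an adjusted p of 0.0231.

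CCND2 encodes cyclin D2. Its brightest probe set, 200953_s_at, read 5.4, 5.5, 36.8, 2.1 and 14.7 in DMSO and 11.0, 2.3, 39.0, 11.3 and 7.4 at 250 nM, in the line order used above. The other 2 ran from 0.4 to 30.7 over the 12 arrays. All CCND2 values were thus under the filter, with SkMel-28 the highest line by 2 of the 3 probe sets. The log2 changes at 250 nM were 0.09, -0.16 and 0.11, and none was called (limma adjusted p 0.837, 0.619 and 0.77).

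CDK4 encodes a kinase partner of all D cyclins. Its probe set 202246_s_at read 12653.2 in SkMel-1, 4557.0 in SkMel-5, 3837.4 in SkMel-28, 5224.4 in SkMel-19 and 5805.1 in Malme3M in DMSO, and 13065.6, 5004.8, 3445.9, 5616.1 and 6542.9 at 250 nM. The groups overlapped almost fully, with 4 lines slightly higher and SkMel-28 slightly lower. The log2 change was 0.06 (SE 0.0563, limma adjusted p 0.444), with a 95% interval from -0.07 to 0.19. The spread among lines was larger than any change within one: SkMel-1 stood 2.18-fold above the next line and 3.3-fold above the lowest, SkMel-28.

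CDK6, the second D cyclin-dependent kinase, was dim. Its probe set 207143_at read 35.5, 24.1, 48.2, 58.2 and 77.5 in DMSO and 58.6, 3.8, 26.9, 17.3 and 23.8 at 250 nM. It was lower in 4 lines and higher in SkMel-1, and the groups overlapped. The log2 change of -0.77 (SE 0.286, 95% interval -1.42 to -0.11) was not called in the probe set fit (limma adjusted p 0.134). With a pseudocount of 1 or 50 in place of 12 it was -1.17 or -0.39, so its size is not fixed by these signals. Without SkMel-1 it was -1.10 with an adjusted p of 0.026, so that line decided the call, at signals below the filter throughout.

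**Figure D2:**
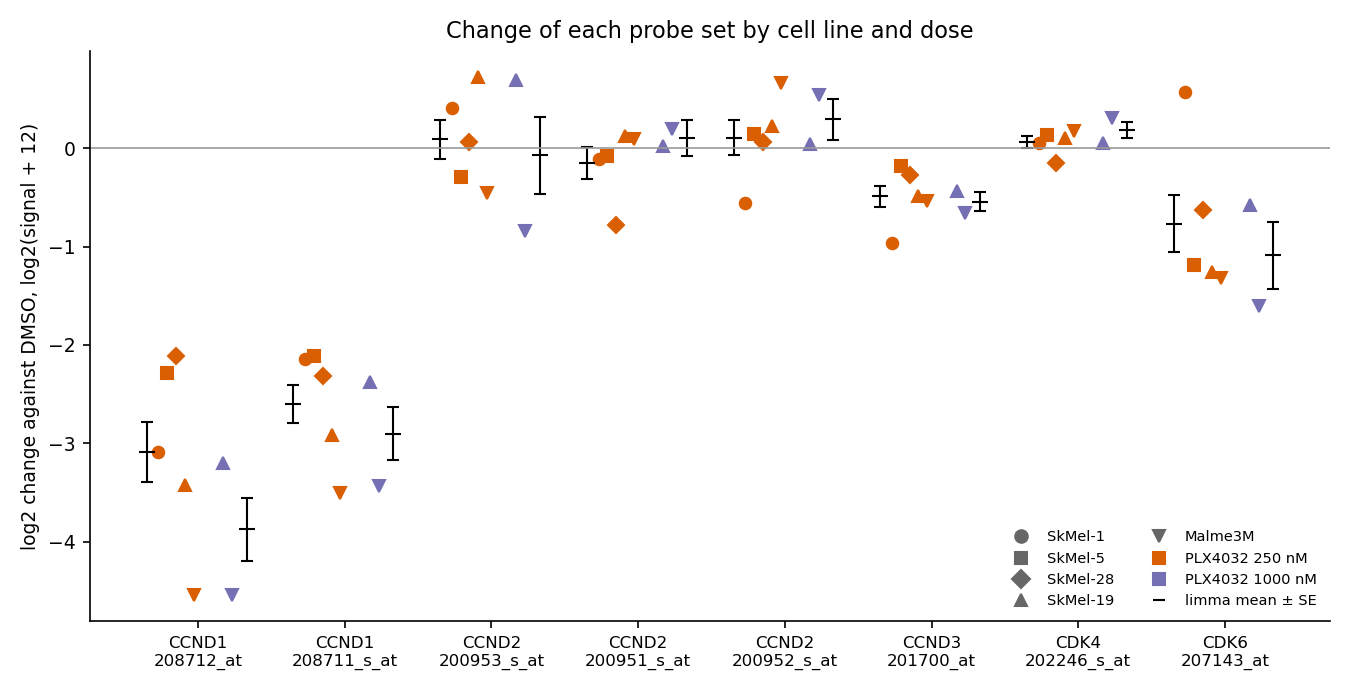
Change in log2(signal + 12) against DMSO for each probe set. Coloured symbols are single lines at 250 nM (orange) or 1000 nM (purple), and black bars are the limma mean ± SE over 5 or 2 lines in the fit over all probe sets. Both CCND1 probe sets lie below -2 in every line, CCND3 lies below 0 in every line, and CDK4 sits near 0.

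The responses of the 5 genes were set against each other within lines, each by its brightest probe set, and are given for the 3 genes above the filter. The changes of CCND2 and CDK6 depend on the pseudocount, so no size is read from the pairs that hold them. CCND1 fell more than CCND3 and CDK4 in 5 of 5 lines. The difference was -2.60 (SD 0.884) from CCND3 and -3.15 (SD 1.06) from CDK4 on the log2 scale. The CCND3 change was in turn below that of CDK4 in 5 of 5 lines, with a difference of -0.55 (SD 0.346). With 5 lines the two-sided exact sign-flip test cannot give a p below 0.0625, which each of these pairs reached, or 0.125 after adjustment over the 10 pairs, so none could pass the threshold.

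At 1000 nM, given only to SkMel-19 and Malme3M, CCND1 was again far below its DMSO signal. Its probe set 208712_at read 216.7 in SkMel-19 and 131.3 in Malme3M, which is 10.4% and 3.94% of their DMSO signals, and 208711_s_at read 128.8 and 91.4. Against DMSO the log2 change was -3.87 (SE 0.315, n = 2 lines), 14.7-fold lower, with a limma adjusted p of 0.00334. In the same lines and fit the change at 250 nM was -3.98 (15.8-fold lower, adjusted p 0.00322). Of the 7178 genes 11.2% were called at 1000 nM, with 5.89% of all genes called lower, and 11.3% were called at 250 nM in these lines. The CCND1 value rests on lines that differ, at -3.20 in SkMel-19 and -4.54 in Malme3M. Its SE also draws on the 250 nM arrays of these lines, so it does not measure the spread at 1000 nM alone.

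CCND3 read 1371.4 and 1073.2 at 1000 nM, below the DMSO arrays of both lines, and its log2 change was -0.54 (SE 0.104, limma adjusted p 0.0291). In the fit over all probe sets, where 2.51% were called, the same change had an adjusted p of 0.0529, so its call depended on which features were tested. In that fit 208711_s_at was called (-2.90, adjusted p 0.015). That call was lost without a trend in the prior variance (adjusted p 0.122), with low signals raised to the filter (0.183) and without the cell line block (0.634). CDK4 read 5422.3 and 7196.5, a log2 change of 0.18 (95% interval -0.01 to 0.37, limma adjusted p 0.17). CDK6 read 35.0 and 17.5 and was not called (-1.09, adjusted p 0.168). CCND2 by 200953_s_at read 10.8 and 2.9.

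Between 1000 and 250 nM limma called 0 of 7178 genes (0.0%), with 75 at an unadjusted p under 0.05. CCND1 differed between the doses by 0.10 (95% interval -0.66 to 0.87), CCND3 by -0.03 (-0.28 to 0.22) and CDK4 by 0.04 (-0.15 to 0.23), each with an adjusted p of 0.999. The intervals allow CCND1 differences of either sign. The 1000 nM and 250 nM comparisons share their DMSO arrays.

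The genes around the cyclin D kinases were grouped into 8 lists by role. Each list's count is set beside the 28.3% of all genes called at 250 nM, the 13.1% called lower, and the 5.89% called lower at 1000 nM. Among the INK4 and CIP/KIP inhibitors, which block cyclin-dependent kinases, 5 of 7 were measured, and 1 fell and 1 rose. CDKN2D (p19), an INK4 inhibitor of CDK4 and CDK6, fell by 0.68 on the log2 scale (SE 0.155, limma adjusted p 0.0127). CDKN1B (p27), an inhibitor of CDK2 complexes that also binds cyclin D complexes, rose by 0.67 (SE 0.0907, adjusted p 0.00141). Each moved the same way in all 5 lines, and CDKN1B was also called at 1000 nM (0.66, adjusted p 0.0148).

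Of the RB, E2F and DP genes 10 of 13 were measured, and 4 fell (13.1% of all genes did) and 0 rose, with a list median of -0.11 beside 0.03 for all genes. E2F1, an activator of S phase genes, fell by 0.71 (limma adjusted p 0.00218), and E2F8 (-0.62), TFDP1 (-0.32), the partner of E2F proteins, and E2F6 (-0.30) fell less. At 1000 nM none of the 10 was called, E2F1 standing at -0.57 (adjusted p 0.0578). Of the 23 E2F target genes of G1/S, 22 were measured, and 10 fell, beside 13.1% of all genes, and 0 rose at 250 nM, with a median of -0.20. CDC25A, a phosphatase that activates cyclin-dependent kinases, fell by 1.64 (SE 0.124, adjusted p 0.000153), and CDC6, which loads the replicative helicase, fell by 1.01 (adjusted p 0.000812). CCNE2 (cyclin E2, -0.99) and UNG (a DNA repair glycosylase, -0.84) followed. At 1000 nM 6 of the 22 were called lower, beside 5.89% of all genes.

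Cyclins and kinases outside the D group moved both ways. Of 16 measured cyclins 3 fell and 4 rose at 250 nM. Cyclins E1 and E2, the partners of CDK2, were among those that fell (CCNE1 -0.81, limma adjusted p 0.00205), with CCNJ at -0.52. CCNG2, an unconventional cyclin linked to cell cycle arrest, rose by 1.31 (SE 0.128, adjusted p 0.00038). Of 14 other cyclin-dependent kinases 4 were called, a share near the 28.3% of all genes. CDK19, a Mediator kinase, rose by 0.73, and CDK17 (-0.52), CDK9 (-0.29) and CDK7 (-0.25) fell. The genes of CDK4/6 assembly and activation gave 2 falls among 6, the chaperone partner CDC37 (-0.28) and CDK7, and those of cyclin D turnover gave 1 among 7, the F-box gene SKP2 (-0.32), a share near the 13.1% of all genes called lower.

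Transcription factors that have been reported at the CCND1 promoter held the largest single changes of any of the 8 lists. The lists were chosen with earlier results of these data known, so this ranking is only a description. Of 21 measured factors, 9 fell and 4 rose at 250 nM, and the list median was only -0.12. FOSL1, an AP-1 subunit, fell by 3.47 (SE 0.279, limma adjusted p 0.000181), more than CCND1 itself. The ETS factors ETV5 and ETV4 fell by 2.61 and 1.97, and MYC fell by 2.37 (adjusted p 0.000968). The 4 that rose were FOSL2 (0.98), ETS1 (0.56), STAT3 (0.46) and CREB1 (0.45). At 1000 nM 7 fell and 1 rose, ETV5 at -3.63 and LEF1, a WNT pathway factor, at -2.42 among them. FOS and EGR1 were below the filter and were not tested.

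**Figure D3:**
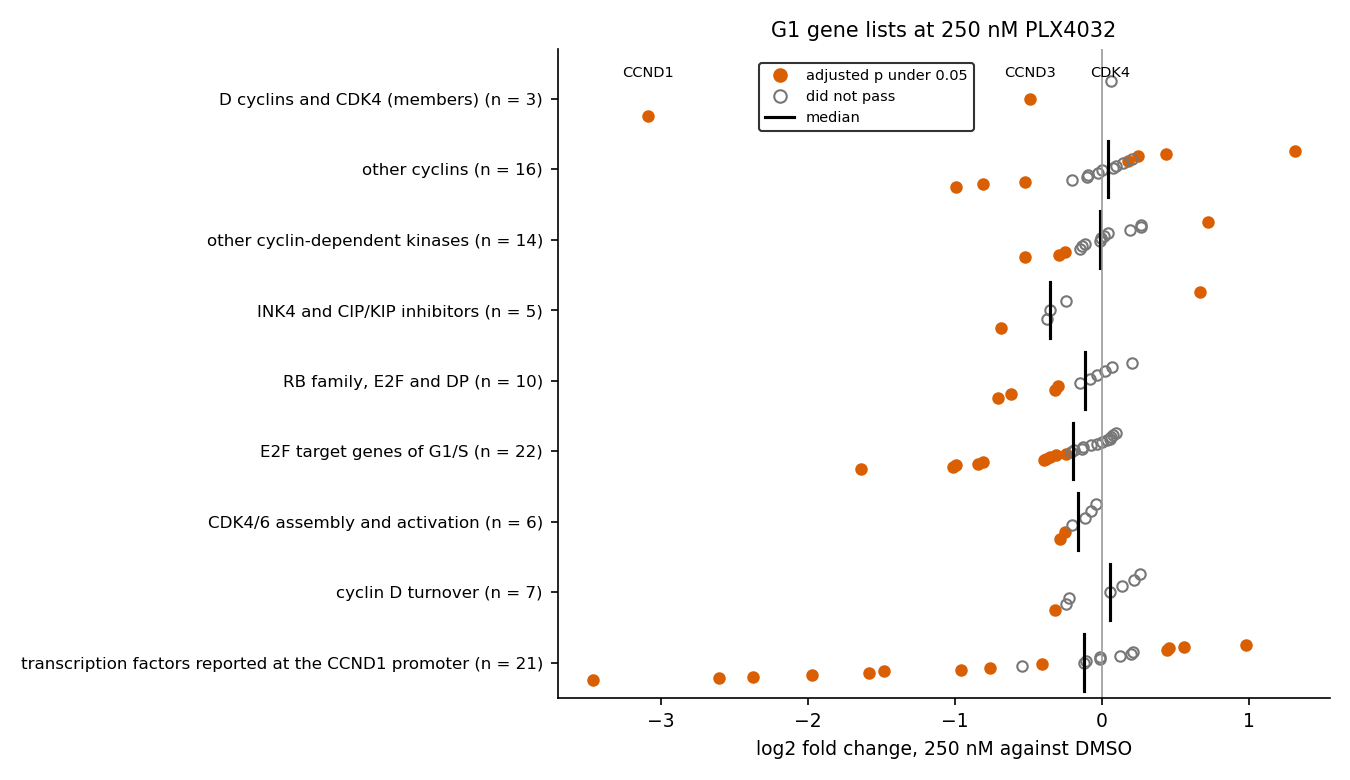
limma log2 fold change at 250 nM against DMSO for the measured genes of each list, 1 point per gene. Filled points have an adjusted p under 0.05, open points do not, and black lines are list medians. CCND1 lies at -3.09, and the E2F targets have filled points only on the left of 0, 10 of 22.

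The genes whose levels followed each member most closely over the 12 arrays were named by Pearson's r, as a description, since arrays of a line share that line. For CCND1 they were SLC4A7 (r = 0.971), a bicarbonate transporter, IER3 (0.97) and SPRY2 (0.965), a feedback inhibitor of receptor signalling to ERK. With each line's mean subtracted they were PXDC1 (0.995), TSPAN14 (0.994) and SPRY2 (0.993). SPRY2 was the gene in both sets, and its log2 change at 250 nM was -3.92 (limma adjusted p 0.000203). For CCND3 the levels of NUP88 (0.931), a nuclear pore gene, GJB1 (0.929) and POLR1G (0.924), an RNA polymerase I subunit, were the closest, and after subtraction ABCE1 (0.992), CCNE2 (0.992) and PPM1G (0.991). CDK4 levels were followed by NSG1 (0.983), ABCD3 (0.968) and RFC1 (0.966), a DNA replication factor.

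The genome neighbours within 500 kb, by the RefSeq gene table (GRCh38.p14), gave a second view of the differences between lines. Of the 11 measured genes near CDK4, 9 had their highest DMSO signal in SkMel-1, as CDK4 did, compared with 19.5% of all genes tested. On the log2 scale SkMel-1 stood 1.37 above the median of the other lines for CDK4, and the median for its neighbours was 1.83. The nearest measured genes showed it on both sides. TSPAN31, a tetraspanin, read 1925.8 in SkMel-1 and 555.1 to 801.2 in the other lines, and METTL1, a tRNA methyltransferase, read 1026.8 against 250.9 to 376.8. These are single DMSO arrays per line, and the pattern was noticed in the values and not tested.

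Along chromosome 12, 12 tested genes in a row from DDIT3 to PPM1H, CDK4 among them, were highest in SkMel-1, which stood 0.336 to 2.45 above the median of the other lines. The next genes on the DDIT3 side, INHBC and R3HDM2, were not, at -0.02 and -0.66. Over the whole chromosome 121 of 413 tested genes (29.3%) were highest in SkMel-1, within the 6.95% to 48.0% seen on the other 21 chromosomes. Near CCND2, near one end of the same chromosome, all 5 measured neighbours were highest in SkMel-1, with a median of 1.95 above the median of the other lines, and the nearest, TIGAR, a regulator of glycolysis, read 5316.1 there against 1309.2 to 1759.4 elsewhere. All of these neighbours lay on the same side of CCND2. CCND2 itself read 5.4 in that line by its brightest probe set, 200953_s_at, and 3.5 by 200951_s_at, and both were highest in SkMel-28. By 200952_s_at it read 14.0, and SkMel-1 was the highest line. A high signal of the neighbours was thus seen beside a cyclin gene that was below the filter.

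**Figure D4:**
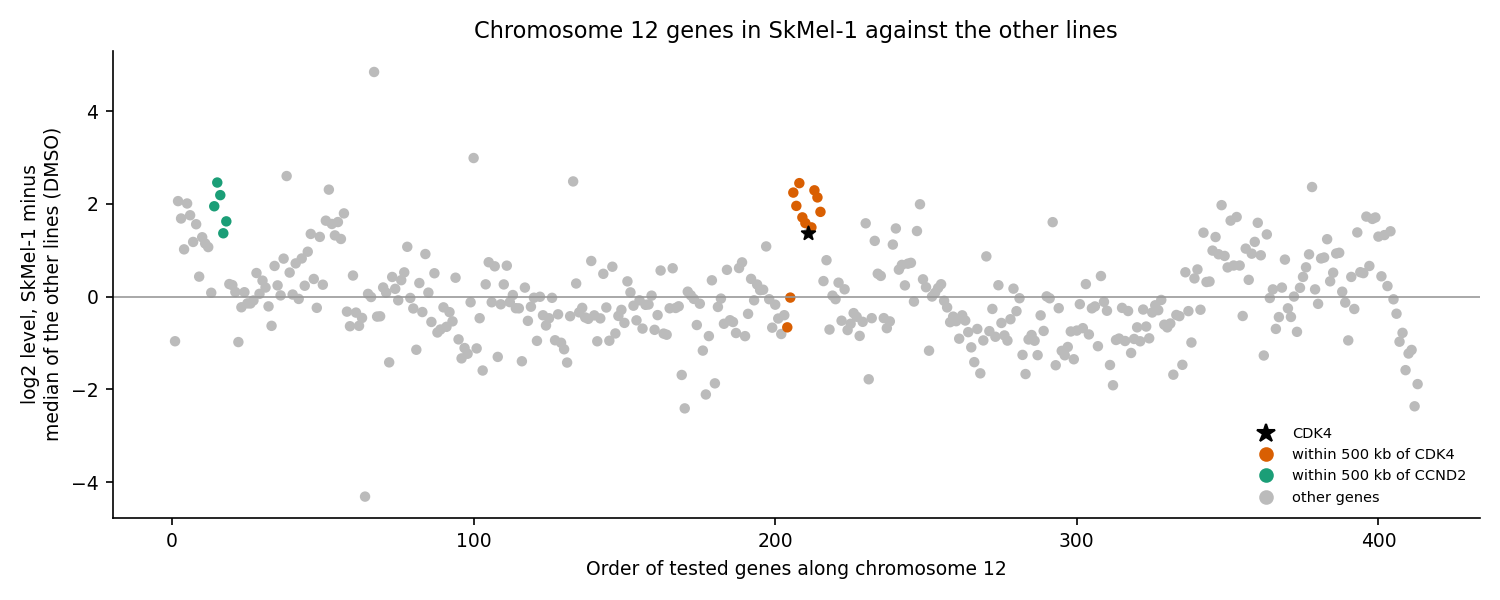
log2 DMSO level in SkMel-1 minus the median of the other 4 lines, for 413 tested genes in their order along chromosome 12, 1 point per gene. CDK4 (star, 1.37) sits among the genes within 500 kb of it (orange), of which 9 of 11 are highest in SkMel-1. The genes near CCND2 (green) are raised as well, with further raised genes (grey) beside them.

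Of the called members, CCND1 and CCND3, only CCND3 had tested genes within 500 kb, and these did not move as a block. CDK4, CCND2 and CDK6 were not called, so their neighbours had no called response to follow. Near CDK4, 1 of 11 fell at 250 nM, METTL1 (-0.78, limma adjusted p 0.021), and 4 rose, beside 13.1% of all genes called lower and 28.3% called either way. Near CCND2, 1 of 5 was called, DYRK4 (0.28, adjusted p 0.0385, named after its values were seen). Near CCND3, BYSL, a ribosome assembly gene and the nearest measured gene on one side, fell by 1.34 (SE 0.141, adjusted p 0.000435), more than CCND3 itself, while MRPS10 on the other side stood at 0.03 (adjusted p 0.766). A further 2 of the 5 genes near CCND3 rose, among them TFEB, a lysosomal regulator (1.26, adjusted p 0.00345, named after its values were seen). Of 4 measured genes near CDK6 none was called, RBM48 and SAMD9 being the nearest, and no tested gene lay within that distance of CCND1.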

How the data were processed

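RNA of 12 cultures was hybridised to Affymetrix arrays as biotin-labelled cRNA, per the labels' protocols. The deposited table holds 1 linear intensity per probe set and array, made by the authors with GCOS, per the submitters' processing notes. Its version, and how probes were summarised and background treated, are not given in the sources used here. A trimmed mean was 500.1 on each array, so values were used as deposited. The number of arrays limits the precision.

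log2(signal + 12) was computed, 12 being the 20th percentile of all values. Of 22215 probe sets other than controls, 19064 carried 1 symbol. Differences were tested with limma 3.58.1 in R 4.3.3 (lmFit, eBayes with a trend), with cell line as a block. The pairing comes from the cell line in the labels. The 250 nM fit had 4 residual degrees of freedom and the fits with 1000 nM had 2. The step was tested on simulated data. No 2 arrays held identical values.

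Named were all probe sets of the members, up to 4 called genes of each list with the largest change, the 3 genes with the highest Pearson r, and the nearest measured neighbour on each side. DDIT3, PPM1H, INHBC, R3HDM2, TFEB, DYRK4, the markers and LEF1's value at 1000 nM, and the chromosome 12 description, fall outside it or were chosen after the values were seen. So do FOSL2, ETS1, STAT3 and CREB1, named as the called rises of their list. The members and lists were chosen with earlier results of these data known. Alternatives tried were the pseudocount, filter, block, prior variance, a floor, median or quantile scaling, 1 fit of all arrays, other probe sets and leaving out each line.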

Additional observations from a re-analysis of the deposited data

Results flagged for a closer look

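A CCND2 probe set, 200951_s_at, had a DMSO level of 5.42 on the log2(signal + 12) scale in SkMel-28, far from the other 4 lines, and a log2 change at 250 nM of -0.78 in the same line, again apart from the others. Its signal there was 30.7 in DMSO and 12.8 at 250 nM, below the filter of 85.7 in both. Of 24 groups examined for a sample that stands apart these 2 were found, where chance gives about 1 in 20. Both draw on the same DMSO signal, so they do not count as separate finds. Another CCND2 probe set, 200953_s_at, moved in opposite directions in the lines with both doses, with a mean change of 0.71 in SkMel-19 and -0.65 in Malme3M, a difference of 1.36. This difference was not tested, and all of its signals were below the filter.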

How the results depend on the processing

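Without the cell line block, 13 genes were called at 250 nM in place of 2029 and 0 at 1000 nM in place of 803. CCND3 was then not called at 250 nM (-0.49, adjusted p 0.463) or 1000 nM (-0.54, adjusted p 1.0), nor CCND1 at 1000 nM (-3.87, adjusted p 0.259). Leaving out 1 line gave 1288 (without SkMel-19) to 1836 calls at 250 nM, 1339 without Malme3M. At 1000 nM 445 genes were called without the filter, 530 without a trend in the prior variance and 460 with low signals raised to the filter. CCND3 at 1000 nM (-0.54) also lost its call without the trend (adjusted p 0.0537) and over all probe sets (adjusted p 0.0529). By single line at 1000 nM CCND1 ran from -4.54 to -3.20 and CDK4 from 0.054 to 0.31, with no test. With all 12 arrays in 1 fit, CCND1 at 1000 against 250 nM was -0.34 in place of 0.10, CDK6 -0.061 in place of 0.20, and CCND2 0.13 (200951_s_at) and 0.019 (200952_s_at). The first of these CCND2 probe sets turned to -0.025 at 1000 nM against DMSO in that fit, and to 0.025 between the doses with a pseudocount of 1. Leaving out 1 line, CCND2 at 250 nM ran from -0.22 to 0.0021 (200951_s_at, above 0 without SkMel-28), from -0.071 to 0.22 (200953_s_at, below 0 without SkMel-19) and from -0.033 to 0.27 (200952_s_at, below 0 without Malme3M). CCND1 and CCND3 at 250 nM kept direction and call in every leave-one-out fit, CCND1 from -3.33 to -2.72 and CCND3 from -0.57 to -0.37. The causes were not tested. Signals under 85.7, all those of CCND2 and CDK6, limit what these arrays show of either gene.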
